A study of Saccharomyces cerevisiae with 16 samples.

Results

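The 60S ribosomal subunit assembly genes of budding yeast, *Saccharomyces cerevisiae*, are described here in wild-type cells and in cells lacking eIF4B, a translation initiation factor encoded by *TIF3*. The 42 genes encode nucleolar, nuclear and cytoplasmic factors of large-subunit assembly and were chosen by name. All 42 were listed at both temperatures, among 5330 genes at 37 °C and 5190 genes at 15 °C. All 42 also passed the filter on low values (at least 10 normalised units on average across genotypes, in each library type), which 5197 genes passed at 37 °C and 5012 at 15 °C.

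Footprints, the stretches of mRNA that ribosomes shield from nuclease, were sequenced beside mRNA from a strain with wild-type *TIF3* (FJZ46) and from a *tif3*Δ strain (FJZ52), each shifted to 37 °C in a first experiment or to 15 °C in a second. All cultures grew in synthetic complete medium and received the elongation inhibitor cycloheximide shortly before harvest. The 16 libraries form 8 groups of 2, and the deposited tables give 1 log2 normalised value per gene and group. Every difference below therefore compares 2 group values, with no replicate error and no test, and rests on 1 strain per genotype. In a bulk culture, fewer cells that express a gene and less RNA per cell cannot be told apart. For *TIF3* itself, wild-type and deletion footprints were 12.49 and 5.2 log2 units at 37 °C, then 11.12 and 5.7 at 15 °C. Its mRNA values were 11.2 and 3.1 at 37 °C (272-fold lower), then 10.6 and 6.4 at 15 °C (only 18.3-fold lower). The source of the *TIF3* signal left in the deletion groups was not tested.

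The large ribosomal subunit is built in the nucleolus around newly made precursor rRNA, onto which assembly factors and ribosomal proteins load in steps. The particle then passes through the nucleoplasm, is exported through nuclear pores and loses its last factors in the cytoplasm. Helicases, ATPases and GTPases drive transitions between these steps, and most of the factors are essential in yeast. Their genes belong to the ribosome biogenesis regulon, whose promoters commonly carry a pair of short elements, PAC (polymerase A and C box), bound by the repressors Dot6 and Tod6, and RRPE (ribosomal RNA processing element), bound by Stb3. Transcription of this regulon follows growth signals such as those of TORC1 and protein kinase A.

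Upstream sequences were read from the RefSeq annotation and genome of build R64, since the members are known for these shared elements. In the 250 bases before the start codon, both strands were searched for the PAC core GATGAG and for the RRPE core AAAAATTT. On the opposite strand they read CTCATC for PAC and AAATTTTT for RRPE. The PAC and RRPE letters cannot overlap each other, and overlapping matches of the same core were each counted. PAC letters were found before 38 of the 42 genes (90.5%) and RRPE letters before 38 (90.5%), against 16.9% and 14.5% of 5192 genes of the filtered 37 °C table. Both were found before 34 members (81.0%) and before 5.53% of all genes, and no member lacked both, as 74.1% of all genes did. The 4 members with RRPE letters alone were *NSA1*, *RIX1*, *IPI1* and *IPI3*, the last 3 being the subunits of the Rix1 complex. The 4 with PAC letters alone were *RRP15*, *RRP1*, *NOC3* and *MAK5*.

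In 21 members both cores lay within 30 bases, with 2 to 16 bases between them, and in 18 of these the RRPE letters were the farther from the start codon. The following 30-base stretches show this layout for the members whose group values are given in full below. Each is read 5′ to 3′ on the strand of its gene, with 1 PAC and 1 RRPE match in capitals, and starts between 225 and 116 bases before the start codon.
NOP2: tctgaaAAAAATTTtcatCTCATCgcagaa
RPF1: aaagtaAAATTTTTagcGATGAGatgtaaa
BRX1: gactgAAAAATTTtagatgCTCATCgcgat
MAK16: tttttgAAAAATTTtccGATGAGcttttga
NOP7: taaagaAAATTTTTtgcGATGAGatgagat
ERB1: AAATTTTTttttttttggttttgcGATGAG
MAK21: gaaAAATTTTTtcttttggcGATGAGgtaa
DRS1: aaAAAAATTTtcaaaaaatgcGATGAGatg
NOG1: cgcagCTCATCgcaaagAAAAATTTtcacc
NOG2: cccgatgCTCATCgcAAAAATTTttcgctt
REA1: gtgAAAAATTTtaaagaagcGATGAGctaa

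In *NOG1* and *NOG2* the PAC letters came first, and in the other 9 the RRPE letters did. The 63 PAC matches before the 42 genes lay a median of 119 bases before the start codon, and the 52 RRPE matches a median of 147.5 bases before it. A match describes letters and not a bound site. Further matches inside these stretches that overlap the capitals are not marked, PAC in *NOP7* and RRPE in *MAK21* and *NOG2*.

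**Figure D1:**
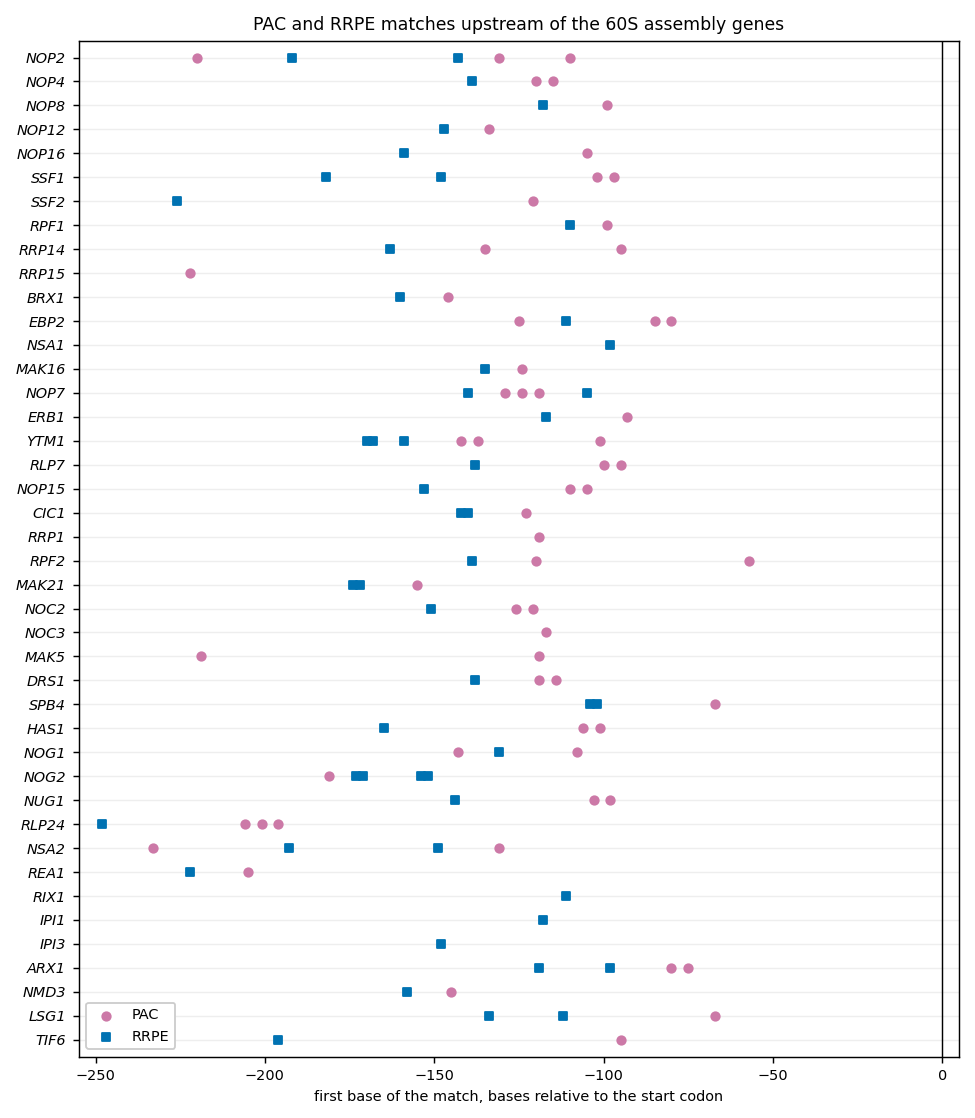
Positions of PAC (circles) and RRPE (squares) letters on either strand in the 250 bases before the start codon of each of the 42 genes; the x axis gives the first base of a match in bases relative to the start codon at 0. PAC matches lie nearer the start codon than RRPE matches in most genes, with medians of 119 and 147.5 bases.

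The first comparison asked how these mRNAs differed without eIF4B at 37 °C. Most of the genes had slightly fewer footprints and slightly less mRNA in *tif3*Δ. Footprints were lower for 34 of the 42 genes and mRNA for 37 of 42, with median log2 differences of -0.26 in both. All genes of the filtered table had medians of 0.02 and -0.01. Few members reached a 1.5-fold difference. Footprints were at least 1.5-fold lower for 4 members, a share of 9.52% against 13.2% of all genes, and at least 1.5-fold higher for 0, against 12.1%. At the same size, mRNA was lower for 4 members (9.52%, against 8.87% of all genes) and higher for 0 (against 8.77%). The 1.5-fold shares on the lower side are thus no higher than, or close to, those of all genes, and the lower median comes from small differences in most of the 42.

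Translational efficiency (TE) divides a gene's footprints by its mRNA. The footprint and mRNA medians were alike at 37 °C, and most members were lower in both. Across the 42 genes the 2 differences were negatively correlated (Spearman correlation -0.393). Genes with the lower mRNA differences thus tended to have the higher footprint differences. TE was split around 0, with 19 members higher, 23 lower and a median log2 difference of -0.01 (0.04 over all genes). It ranged from -0.95 to 0.82 among the members. At least 1.5-fold higher TE was found for 3 members (7.14%, against 10.3% of all genes) and at least 1.5-fold lower TE for 2 (4.76%, against 11.1%). These 5 were *RRP15*, *NOP16* and *RLP24* on the higher side and *REA1* and *MAK21* on the lower side.

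**Figure D2:**
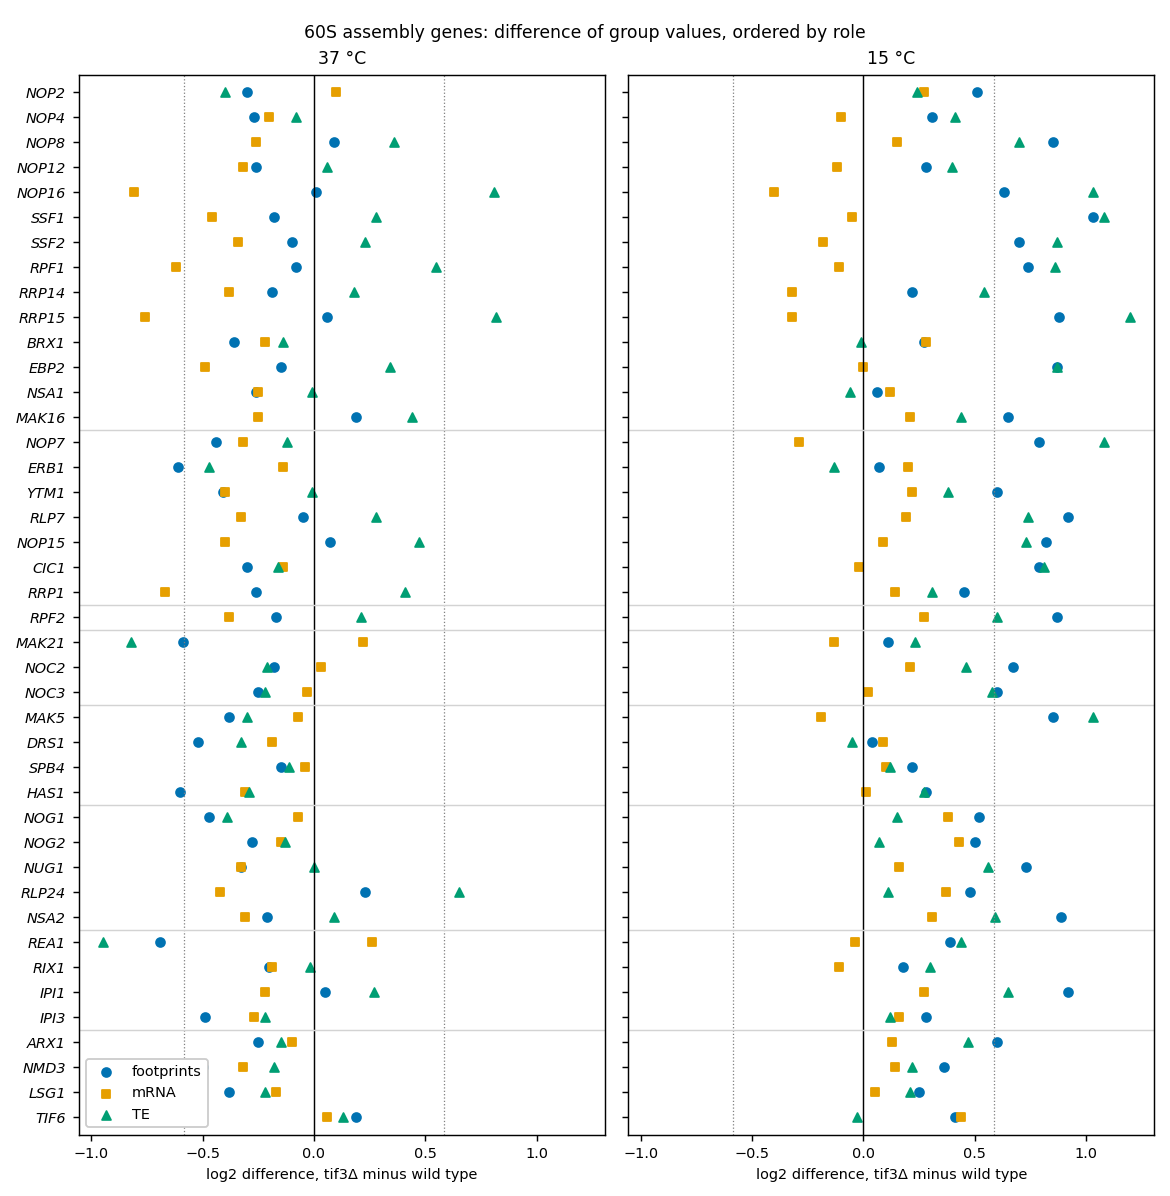
Log2 differences (*tif3*Δ minus wild type) in footprints (circles), mRNA (squares) and TE (triangles) for each of the 42 genes at 37 °C (left) and 15 °C (right), ordered by role with grey lines between roles; dotted lines mark 1.5-fold, and each point compares 2 group values. Footprint points lie left of 0 for 34 genes at 37 °C and right of 0 for all 42 at 15 °C.

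The 6 genes highest in TE at 37 °C all had coding sequences under 1000 nt. A choice by high TE favours genes with lower mRNA, since TE divides by mRNA, and 37 of the 42 members had lower mRNA. *RRP15*, which encodes a nucleolar factor of precursor rRNA processing, had log2 footprint values of 8.50 (wild type) and 8.55 (*tif3*Δ) and mRNA values of 8.4 and 7.7. Its footprints were nearly equal while its mRNA was lower, and its log2 TE difference in the authors' deposited table was 0.82. *NOP16*, a constituent of nucleolar precursor particles, had the same pattern, with footprints of 9.26 and 9.27 and mRNA of 8.9 and 8.1 in log2 units. Its TE difference was 0.81 and its mRNA difference -0.81 in the authors' deposited table. *RLP24*, whose product is a relative of a ribosomal protein and holds its place until the cytoplasmic ATPase Drg1 removes it, had footprints of 10.01 and 10.24 and mRNA of 9.1 and 8.7. The authors' deposited table gave it a TE difference of 0.65, with both more footprints and less mRNA.

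The next 3 genes on this side were below 1.5-fold. *RPF1*, a nucleolar factor with a Brix domain, had log2 footprints of 9.43 and 9.35 and mRNA of 9.1 and 8.5, with a TE difference of 0.55 in the authors' deposited table. *NOP15*, an RNA-binding factor of internal spacer processing, had footprints of 9.59 and 9.67 and mRNA of 9.4 and 9.0, with a TE difference of 0.47 in the same table. *MAK16* had footprints of 9.67 and 9.85 and mRNA of 9.5 and 9.3, with a TE difference of 0.44 in the authors' deposited table. In each of these 6 genes the *tif3*Δ mRNA value was the lower, as in 37 of the 42, while footprints differed by no more than 0.23 on the log2 scale.

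The 6 genes lowest in TE at 37 °C were all longer than the median member (1423.5 nt). *REA1* (also *MDN1*) encodes the very large AAA ATPase that pulls assembly factors off the particle, and at 14733 nt it has the longest coding sequence of the 42. Its log2 footprints were 12.61 (wild type) and 11.92 (*tif3*Δ) and its mRNA 11 and 11.3, so footprints were lower and mRNA higher. The resulting TE difference in the authors' deposited table was -0.95, a 1.94-fold lower TE, from some 8506 footprints in wild type and 3582 in *tif3*Δ. *MAK21* (also Noc1), a partner of Noc2 in early particles, had footprints of 11.35 and 10.76 and mRNA of 10.8 and 11.1, with a TE difference of -0.82 in the authors' deposited table. Its mRNA, like that of *REA1*, was higher in *tif3*Δ, as only 5 of the 42 were.

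*ERB1*, the partner of Nop7 and Ytm1, had log2 footprints of 11.34 and 10.73 and mRNA of 10.4 and 10.3, with a TE difference of -0.47 in the authors' deposited table. *NOP2*, an rRNA cytosine methyltransferase, had footprints of 10.83 and 10.53 and mRNA of 10.3 and 10.4, with a TE difference of -0.40 in the authors' deposited table. *NOG1*, a nucleolar GTPase, had footprints of 11.79 and 11.33 and mRNA of 11.1 and 11, and *DRS1*, a DEAD-box helicase, had footprints of 10.92 and 10.40 and mRNA of 10.5 and 10.4. Their TE differences in the authors' deposited table were -0.39 and -0.33. In these 4 genes it was the footprint value that was lower, by 0.30 to 0.61 in log2 units, and mRNA differed by no more than 0.19.

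By role at 37 °C, TE was lower for all 4 DEAD-box helicases, which unwind RNA in the particle (*MAK5*, *DRS1*, *SPB4* and *HAS1*; median -0.30). It was also lower for all 3 Noc proteins (*MAK21*, *NOC2* and *NOC3*; median -0.22). Over all genes, TE was lower for 47.4% and mRNA for 51.1%. These helicase and Noc genes are 1518 to 3078 nt long. Of all genes of 2000 nt or more, TE was higher for 13.9%. The share was 46.4% for those of 1000 to 2000 nt, where *HAS1*, *SPB4* and *NOC3* fall, and 83.8% below 1000 nt. Role and coding length were not separated. Of the 14 early nucleolar factors, 10 had higher TE (median 0.26), and 13 had lower mRNA (median -0.33). The A3 factors, which prepare the spacer before the 5.8S sequence for trimming, had lower mRNA in 7 of 7 genes (median -0.33), and TE was higher for 3 and lower for 4. Among the 4 genes of export and cytoplasmic maturation, *TIF6*, whose product keeps the subunits apart, had a TE difference of 0.13 in the authors' deposited table. In the same table the export adaptor *NMD3*, the export factor *ARX1* and the cytoplasmic GTPase *LSG1* stood at -0.18, -0.15 and -0.22. Of *REA1* and the Rix1 complex, *IPI1* was higher at 0.27, while *RIX1* and *IPI3* stood at -0.02 and -0.22 in the authors' deposited table.

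Coding length and the TE difference at 37 °C ran together across the 42 genes. The Spearman correlation was -0.834 (Pearson -0.830), and -0.822 without *REA1*; across 5192 genes of the filtered table it was -0.651. Footprint differences correlated with length at -0.688 and mRNA differences at 0.681 among the 42. These are descriptions across genes, which share the same libraries and are not replicates. The 11 members under 1000 nt had a median TE difference of 0.44, and all 1915 genes of that length had 0.35. For the 23 members of 1000 to 2000 nt the median was -0.11, against -0.03 for 2057 genes. The 8 members of 2000 nt or more had -0.32, with 8 of 8 lower, against -0.38 for 1220 genes. TE of the members at 37 °C was thus near that of all genes of like length. Their mRNA was lower than that of all genes in each class, with medians of -0.40 against -0.16, -0.27 against 0.00 and -0.11 against 0.21. Their footprints were also lower in each class, with medians of 0.01 against 0.18, -0.26 against -0.02 and -0.45 against -0.21.

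**Figure D3:**
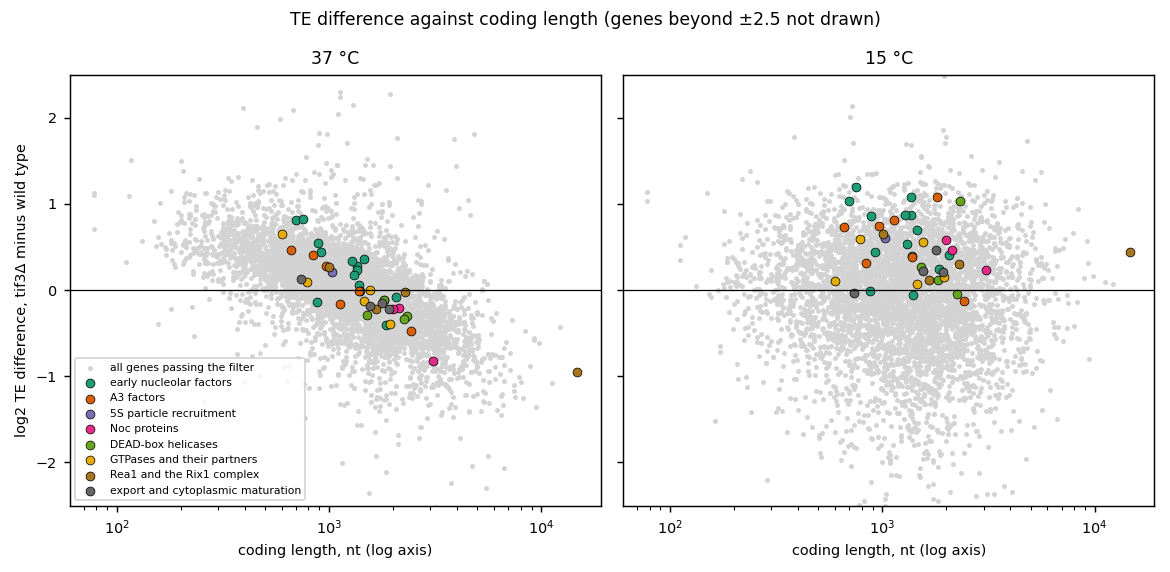
Log2 TE difference (*tif3*Δ minus wild type) against coding length in nt on a log axis, at 37 °C (left) and 15 °C (right); grey points are all genes passing the filter and coloured points the 42 members by role. At 37 °C the members follow the slope of the grey points (Spearman -0.834 across the 42), and at 15 °C 37 of 42 lie above 0 with a weaker slope (-0.286).

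The 15 °C experiment posed this question for cold cells. Footprints of all 42 genes were higher without eIF4B; the median was 0.56 on the log2 scale (1.47-fold), with a range from 0.04 to 1.03, against a median of 0.01 and 50.5% higher over all genes. At least 1.5-fold more footprints were found for 21 of 42 members, against 16.0% of all genes, and at least 1.5-fold fewer for 0, against 20.7%. The mRNA differed little, with 27 members higher, 15 lower and a median of 0.11 (0.00 over all genes). No member reached 1.5-fold in mRNA in either direction, against 6.78% of all genes higher and 5.85% lower. TE was accordingly higher for 37 of 42, with a median of 0.44 (0.00 over all genes). TE was at least 1.5-fold higher for 15 members (35.7%), against 13.9% of all genes, and at least 1.5-fold lower for 0, against 18.9%.

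The *tif3*Δ footprints at 15 °C were the shallowest of the 4 footprint groups, with about 1800000 footprints on listed genes against 5400000 in wild type (11900000 and 17500000 at 37 °C). The members had about 102 (*SPB4*) to 1082 (*NOG1*) footprints there. From such numbers, exact binomial 95% intervals on a footprint difference, which cover counting error only, reached from 0.11 to 0.34 log2 units to either side. Of the 42 footprint differences at 15 °C, 35 were larger than this and 7 were not, namely those of *RRP14*, *NSA1*, *ERB1*, *MAK21*, *DRS1*, *SPB4* and *RIX1*. At 37 °C, 33 of 42 were larger.

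**Figure D4:**
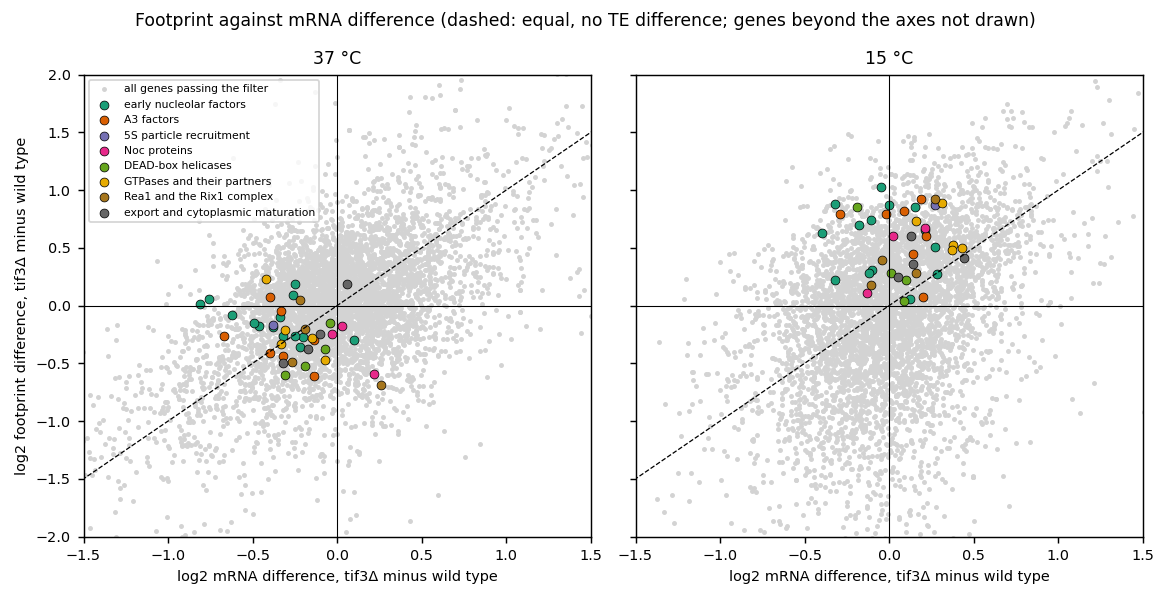
Log2 footprint difference against log2 mRNA difference (*tif3*Δ minus wild type) at 37 °C (left) and 15 °C (right); grey points are all genes passing the filter, coloured points the 42 members by role, and the dashed line marks equal differences, where TE does not differ. At 37 °C most members lie left of and below 0 around the dashed line, and at 15 °C all 42 lie above 0 in footprints, 37 of them above the dashed line.

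Of the 6 genes with the highest TE at 15 °C, 4 encode early nucleolar factors. *RRP15* had log2 footprints of 7.65 (wild type) and 8.5 (*tif3*Δ) and mRNA of 7.4 and 7.1, and its TE difference in the authors' deposited table was 1.20, or 2.29-fold. *NOP7*, a scaffold of the A3 factors, had footprints of 10.20 and 11 and mRNA of 9.7 and 9.4, with a TE difference of 1.08 in the authors' deposited table. With some 1621 footprints in wild type and 942 in *tif3*Δ, it had the most of these 6 genes. *MAK5*, the DEAD-box helicase of early particles, had footprints of 8.6 and 9.5 and mRNA of 8.5 and 8.3, with a TE difference of 1.03 in the authors' deposited table. *NOP16* was again among the highest, with footprints of 8.26 and 8.9, mRNA of 8.1 and 7.7, and a TE difference of 1.03 in the authors' deposited table. In all 4 genes the *tif3*Δ footprints were the higher and the *tif3*Δ mRNA the lower value, a pattern that a choice by high TE favours.

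*SSF1* and *SSF2*, near-identical genes of a nucleolar Brix-domain factor that acts in early precursor particles, made up the other 2 of the 6 highest. *SSF1* had log2 footprints of 8.63 and 9.7 and mRNA of 8.8 and 8.7, and *SSF2* footprints of 7.83 and 8.5 and mRNA of 7.6 and 7.4. Their TE differences in the authors' deposited table were 1.08 and 0.87 at 15 °C. At 37 °C, *SSF1* had footprints of 9.56 and 9.38 and mRNA of 9.8 and 9.4, and *SSF2* footprints of 8.97 and 8.87 and mRNA of 8.9 and 8.5. Their TE differences there were 0.28 and 0.23 in the authors' deposited table. Their coding sequences, both of 1362 nt, have the same base at 92.1% of positions in build R64. Of the 1335 stretches of 28 nt, about the length of a footprint, 251 (18.8%) occur in both genes, so reads from these could not be assigned to 1 of them. The treatment of such reads by the authors is not recorded in the labels, and the values of the 2 genes are uncertain to that extent. The place where the genes are least alike is shown next, with the 10 differing bases of 30 in capitals (coding bases 847 to 876).
SSF1: AAgtcCcaaaGaacaccGgtCGaaaAgaAG
SSF2: CTgtcGcaaaAaacaccCgtTAaaaTgaCA

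Elsewhere they share a run of 92 bases without a difference. Of the other 40 members, only *NOP8* and *EBP2* shared a 28-nt stretch with another coding sequence, in 0.420% and 0.796% of their stretches. Reads shared with other genes therefore touch few of the values here.

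The lowest TE at 15 °C was close to no difference. *ERB1* was the lowest, with log2 footprints of 9.72 and 9.8 and mRNA of 9.1 and 9.3, and a TE difference of -0.13 in the authors' deposited table. *NSA1*, a factor of early particles, had footprints of 8.23 and 8.3 and mRNA of 8.3 and 8.5, and *DRS1* had footprints of 9.60 and 9.6 and mRNA of 9.4 and 9.5. *TIF6* had footprints of 9.84 and 10.2 and mRNA of 9.5 and 9.9, and *BRX1*, a Brix-domain factor, had footprints of 9.19 and 9.5 and mRNA of 9.1 and 9.4. The authors' deposited table gave these 4 TE differences of -0.06, -0.05, -0.03 and -0.01. *NOG2*, a GTPase that checks late nuclear particles, had footprints of 9.59 and 10.1 and mRNA of 10.1 and 10.6, with a TE difference of 0.07 in the authors' deposited table. For *TIF6*, *BRX1* and *NOG2* both footprints and mRNA were higher in *tif3*Δ by like amounts, while for *ERB1*, *NSA1* and *DRS1* footprints were nearly equal.

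The roles differed in how footprints and mRNA combined at 15 °C. The 7 A3 factors had the highest footprint median of the roles with more than 1 gene, 0.79 on the log2 scale, with a TE median of 0.73. Within them *RLP7*, *NOP15* and *CIC1* had TE differences of 0.74, 0.73 and 0.81 in the authors' deposited table, against -0.13 for *ERB1* and 0.38 for its partner *YTM1*. The 14 early nucleolar factors had a TE median of 0.62 at an mRNA median of -0.08. The 5 GTPases and their partners had higher mRNA in 5 of 5 (median 0.37), against 50.4% of all genes. Their footprint median of 0.52 thus left a TE median of 0.15. *NUG1*, a nuclear GTPase, and *NSA2*, a factor of nuclear particles, were the highest of these in TE, at 0.56 and 0.59 in the authors' deposited table. *RPF2*, which brings the 5S particle to the subunit, had a footprint difference of 0.87 and a TE difference of 0.60 in the same table.

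The remaining roles had TE medians at 15 °C of 0.19 (helicases), 0.46 (Noc proteins), 0.37 (Rea1 and the Rix1 complex) and 0.21 (export and cytoplasmic maturation). Of the 4 helicases, *MAK5* stood apart from *HAS1*, *SPB4* and *DRS1*, whose TE differences at 15 °C were 0.27, 0.12 and -0.05 in the authors' deposited table. The Noc genes had TE differences of 0.23 (*MAK21*), 0.46 (*NOC2*) and 0.58 (*NOC3*) in the authors' deposited table. *REA1*, the lowest gene in TE at 37 °C, was higher at 15 °C, with log2 footprints of 10.13 and 10.5, mRNA of 8.9 and 8.9, and a TE difference of 0.44 in the authors' deposited table. Of the Rix1 complex, which works with Rea1, *IPI1*, *RIX1* and *IPI3* had TE differences of 0.65, 0.30 and 0.12 in the same table. The 4 export and cytoplasmic genes had higher mRNA in 4 of 4, against 50.4% of all genes.

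At 15 °C the members stood apart from all genes in each length class. The TE medians were 0.59 for the 11 members under 1000 nt, 0.47 for the 23 of 1000 to 2000 nt and 0.35 for the 8 of 2000 nt or more, against 0.05, -0.05 and -0.06 for all genes of these lengths. Footprint medians were 0.65, 0.60 and 0.25, against 0.18, -0.06 and -0.18. The correlation of the TE difference with length was weak among the members (Spearman -0.286) and among all genes (-0.071).

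Side by side, the signed footprint difference was higher at 15 °C than at 37 °C in 42 of 42 genes, by a median of 0.81 log2 units. The same held for 48.5% of 4999 genes that passed the filter at both temperatures. The gap ran from 0.23 for *TIF6* to 1.23 for *NOP7*. The signed TE difference was higher at 15 °C in 38 of 42 genes, against 46.7% of all genes, with the largest gap of 1.39 in *REA1*. The signed mRNA difference was higher in 39 of 42, against 50.4% of all genes. Higher means more positive here and not larger in size, as the mRNA medians were -0.26 at 37 °C and 0.11 at 15 °C. Across the members, the Spearman correlation between temperatures was 0.481 for TE and 0.497 for footprints, against 0.328 and 0.355 across all genes. The experiments were run separately and their tables were normalised separately, so temperature and experiment cannot be told apart. Across all genes, the footprint gap (15 °C minus 37 °C) ran from -5.44 (*STE2*) to 3.96 (*RCK1*). The mRNA gap ran from -4.37 (*MFA2*) to 3.06 (*HSP30*). *STE2* and *MFA2* are mating-type-specific genes, and whether the compared strains differed in mating type in either experiment was not tested.

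In wild type most of these genes had more footprints per gene than the median gene at both temperatures. Relative to the median gene of the same column, log2 footprints had a median of 1.32 at 37 °C (39 of 42 above the median gene) and 1.88 at 15 °C (42 of 42). The mRNA medians were 1.00 and 1.5, and those of TE 0.39 and 0.16. TE was above that of the median gene for 33 of 42 at 37 °C and for 26 of 42 at 15 °C, where *NOG2* was lowest at -0.52. Footprints per gene are not corrected for length or mRNA. To compare levels between genes, footprints were taken per kb of coding sequence. On this log2 scale *TIF6* was the highest at both temperatures, at 11.39 and 10.28. The next levels at 37 °C were close together, with *NOG1*, *HAS1* and *BRX1* at 10.83 and *RLP24* at 10.75, and their order has no replicate check. The lowest was *NOP8* (8.11) at 37 °C and *REA1* (6.25) at 15 °C. At 37 °C the partners *NOP7*, *ERB1* and *YTM1* stood at 10.50, 10.06 and 10.18, and *RIX1*, *IPI1*, *IPI3* and *REA1* at 8.78, 8.28, 8.88 and 8.73. The Noc genes *MAK21*, *NOC2* and *NOC3* were at 9.73, 10.06 and 9.06, so members of a complex did not all lie at the same level. At 15 °C the first 2 of these sets stood at 9.34, 8.44 and 8.62 and at 7.54, 7.46, 7.75 and 6.25, so *REA1* was below all 3 partners in the second table, while in the first it lay above *IPI1*.

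**Figure D5:**
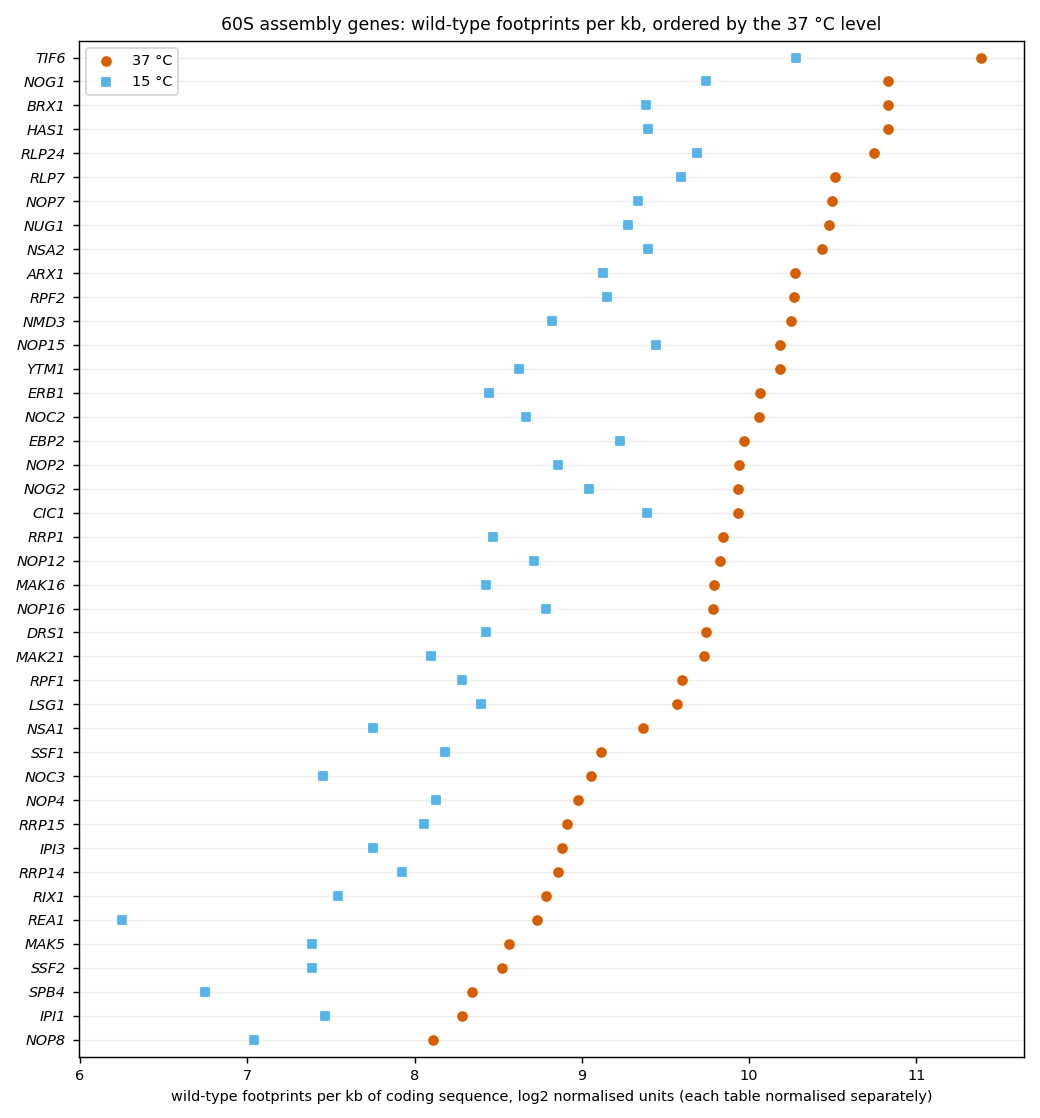
Wild-type footprints per kb of coding sequence, in log2 normalised units, for the 42 genes at 37 °C (circles) and 15 °C (squares), ordered by the 37 °C level; the 2 tables were normalised separately, so the shift between circles and squares is not a change in level. *TIF6* is highest at both temperatures (11.39 and 10.28), and *REA1* is lowest at 15 °C (6.25).

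Other genes of ribosome assembly were counted in the same way. Of 48 further 60S assembly genes, 47 passed the filter. At 15 °C, 41 of these had more footprints and 6 fewer (median 0.41) and 34 higher TE (median 0.32), with 12 (25.5%) at least 1.5-fold higher in TE and 2 at least 1.5-fold lower. The helicase gene *DBP3* and *RSA3* were highest, with TE differences of 0.95 and 0.94, and the polynucleotide kinase *GRC3* and *RRB1*, a chaperone of a ribosomal protein, lowest at -0.89 and -0.64 in the authors' deposited table. Of 56 small-subunit processome genes, which act on the other subunit, 54 passed. At 15 °C, 44 had more footprints and 10 fewer (median 0.47) and 41 higher TE (median 0.31). Their TE differences reached 1.5-fold upward in 19 genes (35.2%), close to the 35.7% of the 42 members, and downward in 2. Footprint differences reached this size upward in 18 of the 47 (38.3%) and 22 of the 54 (40.7%). These shares stand next to 50% of the members and 16.0% of all genes. Downward, the footprint counts were 2 of the 47 and 0 of the 54. In TE, *RRP36* and *UTP14* were highest at 1.35 and 1.22 and *UTP10* and *RRP7* lowest at -0.90 and -0.60 in the authors' deposited table. At 37 °C, footprints were at least 1.5-fold lower for 9 of the 47 (19.1%) and 11 of the 54 (20.4%), and the TE medians were -0.04 and -0.09. The genes *URB1* (-1.17), *GRC3* (-0.91), *UTP20* (-1.24) and *UTP10* (-1.04) were then lowest, and *CGR1* (1.02), *TMA16* (0.84), *RRP36* (0.72) and *BUD21* (0.53) highest in the authors' deposited table. Both cores were found upstream of 55.3% of the 47 and 74.1% of the 54 genes, next to 81.0% of the 42 members. Whether the 3 lists differ from each other was not tested.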

How the data were processed

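Per the submitters' processing notes, CASAVA 1.8, Bowtie2 2.0.6, TopHat2 2.0.7, DESeq and build sacCer2 were used, without roles or order. The deposited log2 values are, per the file headers, 1 value per gene and group and the authors' log2 differences in footprints, mRNA and TE; the step that combined the 2 libraries is not stated there. The 42 members, their roles, the gene lists and the tests were chosen with earlier results of these data known.

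Genes needed a mean of 10 normalised units in both library types, with *TIF3* left out, and were counted when at least 1.5-fold apart. Planned count models need single libraries and were not run. Footprint numbers came from the spacing of the lowest values, with 97.5%, 100%, 85.7% and 82.5% of values up to 6 steps within 0.15 steps of a whole number (wild type and *tif3*Δ at 37 °C, then at 15 °C). The deposited mRNA values and the *tif3*Δ footprints at 15 °C have 1 decimal. Group values are given for the 6 highest and 6 lowest members in TE at each temperature, *SSF1*, *SSF2* and *REA1*; other examples, taken to describe each role, were chosen after their values were seen. Coding lengths and sequences came from RefSeq R64 by systematic name, and no R64 coordinate was joined to the files. Python 3.11.15, pandas 2.3.3 and scipy 1.17.1 were used, and the counting, step and motif code was tested on simulated data.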

Additional observations from a re-analysis of the deposited data

Results flagged for a closer look

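Differences of opposite sign at the 2 temperatures drew attention. Footprints were lower in *tif3*Δ at 37 °C and higher at 15 °C for 34 of the 42 genes, as for 17.9% of 4999 genes of both filtered tables. The same held for mRNA in 24 genes (23.6% of all genes) and for TE in 19 (17.9% of all genes). With 1 value per group, the difference between the temperatures was not tested.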

How the results depend on the processing

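The counts depend on the fold chosen. With a 25% difference in place of 1.5-fold, at 37 °C 14 of 42 genes were lower in footprints (24.6% of all genes) and 14 in mRNA (21.5%), and TE was higher for 9 (26.6%) and lower for 6 (23.0%). At 15 °C mRNA was then higher for 4 (18.6% of all genes) and lower for 1 (18.6%), and TE higher for 25 (28%). With a fold of 2, no member (0) passed in footprints, mRNA or TE at 37 °C, against 2.35% to 4.81% of all genes in each direction. At 15 °C 1 then passed in footprints (4.07% of all genes) and 5 in TE (3.01%), all higher. Recomputed from the rounded group values, mRNA at 37 °C was higher for 3 genes in place of 5; these values are rounded. The other 130 of 144 values stayed within 1.5 times (medians within 0.1) under these settings and without the filter, with a minimum of 32, relative to the median of all genes, and without *SSF1* and *SSF2*. No paired analysis was possible because the columns hold no single library, and for the same reason no replicate could be left out. For mRNA, depth could not be read from these values.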

Other observations

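Values by upstream letters were as follows. The 34 members with both PAC and RRPE letters had median log2 differences at 15 °C of 0.56 in footprints and 0.44 in TE. The 4 members with PAC letters alone (*RRP15*, *RRP1*, *NOC3* and *MAK5*) had TE medians of 0.81 at 15 °C and 0.10 at 37 °C, and the 4 with RRPE letters alone (*NSA1*, *RIX1*, *IPI1* and *IPI3*) had 0.21 and -0.02. At 37 °C the mRNA medians of these 3 sets were -0.29, -0.37 and -0.24. With 4 genes in each of the smaller sets, these medians are descriptions of single genes.

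Between the 2 wild-type tables, mRNA of 40 of the 42 genes stood higher relative to the median gene at 15 °C than at 37 °C, with a median gap of 0.55 log2 units, and TE stood higher for 12. The exceptions in mRNA were *RRP14*, at -0.30, and *REA1*, at -0.50. The share of all genes that stood higher at 15 °C was not counted, so these counts cannot be called particular to the members. Temperature and experiment cannot be told apart here either.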
